A study of Mus musculus with 8 samples.

Results

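The comparison described here is that of miR-125b with a control vector in pre-B cells starved of interleukin-7 (IL-7). It was taken from the sample titles: 2 arrays of cells carrying a vector for the human microRNA hsa-miR-125b and 2 arrays of cells carrying a control vector, each after 24 h without IL-7. These are 4 of the 8 arrays of the series, and the other 4 hold the same vectors in cells kept in IL-7. All cells belonged to the mouse pre-B line 1676, for which the labels give the genotype SLP-65-/- LAT-/-, that is without these adaptor proteins, in control and miR-125b cells alike. They grew in medium with 7.5% serum and IL-7 in excess, were transduced with retroviral vectors and were selected with 1 µg/ml puromycin. The design text states that each repetition used independently generated cell clones, and the starved cells were placed in medium without IL-7 in order to induce differentiation. The 2 arrays of a group are therefore separate clones of 1 line. A p-value sets a difference against the spread between such clones, pooled over all 4 groups of the series and moderated across genes.

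A microRNA guides Argonaute proteins to messenger RNAs that pair with its seed, the bases near its 5′ end, and the paired messages are degraded or translated less. miR-125b is abundant in haematopoietic stem cells, and its overproduction in B-cell precursors has been linked to leukaemia. IL-7 keeps pre-B cells alive and dividing through JAK and STAT5. Its loss lets the cells leave the cycle, open the light chain loci and mature, but also exposes them to death through BCL2 family proteins.

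The mature sequence that the vector is built to supply is shown with its relatives, because the seed, in capitals (bases 2 to 8), decides which messages can pair. All sequences are from RefSeq (GRCm38.p6), the mouse form standing for the vector's human hairpin.

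mmu-miR-125b-5p: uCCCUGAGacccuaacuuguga

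mmu-miR-125a-5p: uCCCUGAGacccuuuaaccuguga

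mmu-miR-351-5p: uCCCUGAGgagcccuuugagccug

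The 3 mature microRNAs share the seed and differ after it. In the mouse, miR-125b-5p has 22 bases and is made from Mir125b-1 at chr9:41581940-41581961 on the plus strand and from Mir125b-2 on chromosome 16. The arrays measure messages and long RNAs, not mature microRNAs, so the product of the vector was not measured. The host transcript of the endogenous Mir125b-1, Mir100hg, read -4.20 and -3.28 in control cells and -3.53 and -4.67 in miR-125b cells, was above background on only 1 array of each group, and did not pass the test (adjusted p = 0.671, limma). The adaptor whose gene is Blnk (SLP-65) read between 7.55 and 7.70 on the 4 arrays and Lat between 1.59 and 1.84. Where the deleted parts lie relative to these probes is not given in the labels, so neither value checks the genotype.

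RNA was labelled with Cy3 from 100 ng of total RNA and hybridised to Agilent arrays with 55681 gene probes. Levels are given as log2 of the background-subtracted spot signal minus the log2 75th percentile of the same array, so that a level of 0 is that percentile and a difference of 1 is 2-fold. Between 47.69% and 54.81% of probes were well above background on the 4 arrays, the fewest on control replicate 1, and 0 spots were saturated. Replicates correlated at 0.995 (control) and 0.996 (miR-125b) across probes, which are not independent of each other. All 4 arrays lay on 1 slide, with control arrays in columns 1 and 2 and miR-125b arrays in columns 3 and 4, so the vector and the position on the slide cannot be told apart. Pre-B markers fit the labelled cell type: 14 of 14 were measured, 13 of them above background on all 4 arrays (the exception was Ighm), and their summed linear signal lay between 1480 and 1520 times the 75th percentile on each array.

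Starved miR-125b cells differed from starved control cells in 1331 of 20615 genes (6.46%) at a Benjamini-Hochberg adjusted p under 0.05 in limma, fitted over all 8 arrays. Of these, 590 rose (2.86% of all genes) and 741 fell (3.59%). The called differences had a median size of 0.69 with a median standard error (SE) of 0.0995, and 337 of them reached 2-fold, 157 upward and 180 downward. The median difference of all genes was -0.02. In 12597 genes (61.1%) the 2 miR-125b values lay on one side of both control values, so a lack of overlap alone says little with 2 arrays a group. The groups overlapped in 0 of the 1331 called genes, so a lack of overlap in a called gene adds nothing to its call. The number called rested on all 4 arrays: it was 36 without control replicate 1, 105 without control replicate 2, 3 without miR-125b replicate 1 and 30 without miR-125b replicate 2. Scaling to the median of each array in place of the 75th percentile moved the median of all genes to 0.18, and the calls to 709 higher and 191 lower (78.8% higher, against 44.3%). That scaling adds the same amount to every difference, so a list's median relative to all genes does not change. List medians below are therefore to be read against the median of all genes. Counts of called members are to be read against the 6.46% of all genes called, 2.86% higher and 3.59% lower.

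**Figure D1:**
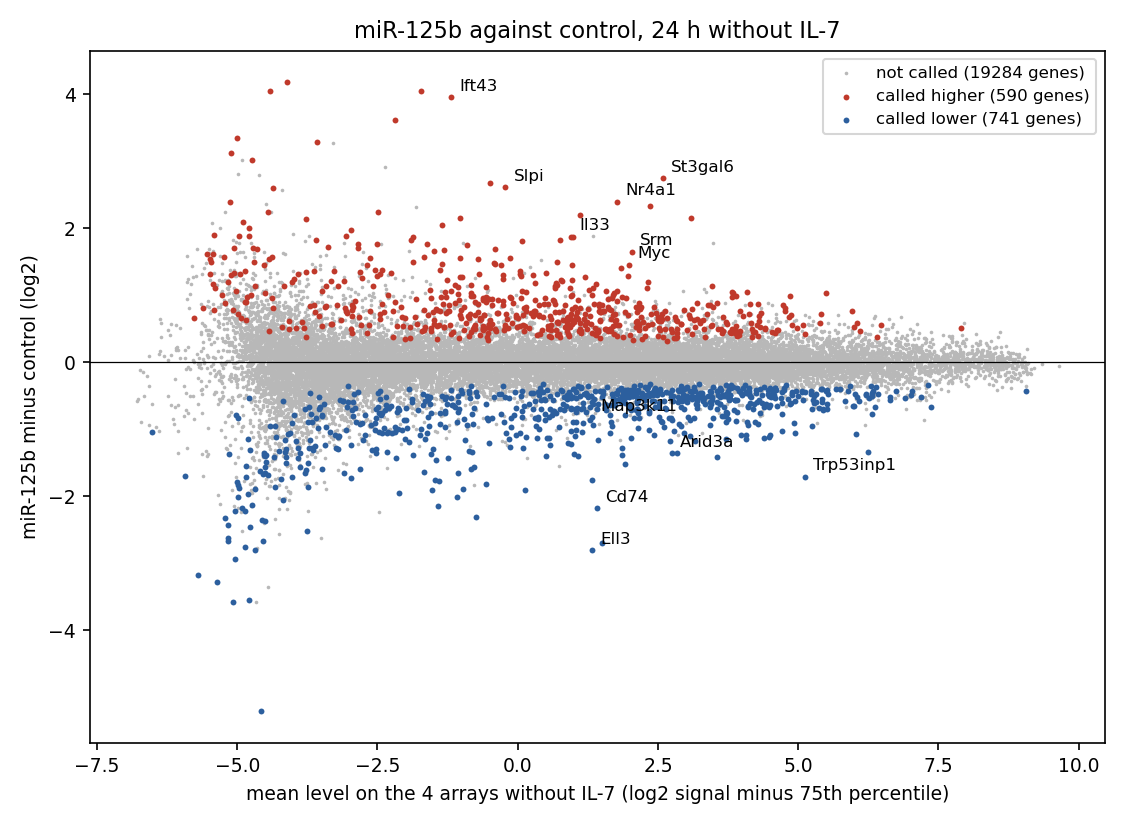
Log2 difference between miR-125b and control cells 24 h after IL-7 withdrawal (vertical axis) against the mean level on the 4 arrays (horizontal axis, log2 signal minus the array's 75th percentile), 1 point per gene. The 590 genes called higher are red, the 741 called lower are blue, and the 19284 others are grey; differences among dim genes at the left scatter most.

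Messages reported elsewhere as targets of miR-125b stood mostly below control. Of 56 such genes 49 were measured, 16 fell, 1 rose and 32 did not pass, where 3.59% of all genes fell and 2.86% rose. The list's median was -0.31 against -0.02 for all genes. With arrays scaled to their median 5 fell and 1 rose. The largest decrease was that of Trp53inp1, a p53-induced gene that promotes apoptosis and autophagy. It read 5.99 and 5.96 in control cells and 4.26 and 4.27 in miR-125b cells, a difference of -1.71 (SE 0.0910, adjusted p = 0.00511, limma). The probe lies at chr4:11101174-11101233 (mm9), and the second probe of the gene gave -1.40. Both miR-125b arrays lay below both control arrays, as in every gene called lower, and replicates of a group differed by far less than the groups.

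Arid3a, an AT-rich DNA-binding factor of B cells, read 3.40 and 3.46 in control cells against 2.11 and 2.03, a difference of -1.36 (SE 0.07, adjusted p = 0.00511). Abtb1, an ankyrin and BTB protein, fell from 4.98 and 4.94 to 3.92 and 3.73 (-1.13, adjusted p = 0.00930). Tnfaip3, the deubiquitinase A20 that restrains NF-kappaB, fell from 1.60 and 1.53 to 0.46 and 0.47 (-1.11, adjusted p = 0.0287). The groups did not overlap in any of these 3 genes, as in every called gene. Traf6, a ubiquitin ligase of Toll-like and TNF receptor signalling, and Tor2a, a torsin ATPase, each fell by 0.89 (adjusted p = 0.0139 and 0.0126). For Traf6 the 3 probes disagreed, from -0.89 to -0.03. S1pr1, the sphingosine phosphate receptor that guides exit from tissues, was the member that rose, from -1.73 and -1.80 to -0.81 and -0.98 (0.87, adjusted p = 0.0228). Of the members that did not pass, the most distant from 0 were the BH3-only gene Bmf at -0.67 (adjusted p = 0.108) and Lin28a at 0.60 (adjusted p = 0.266).

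The array probes themselves hold stretches of the messages, so the letters that pair with the seed could be sought in them. The 7 letters CTCAGGG, complementary to bases 2 to 8, occur in 0.44% of all probes and in the probes of 96 of the genes tested. Of these 96 genes, 12 fell (12.5%) and 0 rose, where 3.55% of the 20519 other genes fell and 2.88% rose. Their median difference was -0.10 against -0.02, and 60.4% lay below 0 against 52.5%. The largest difference among the 96 was an increase that did not pass, that of Fam117a at 1.53 (adjusted p = 0.0538, limma), named after its value was seen. The calls among these genes were not counted with arrays scaled to their median. The same letters read on the other strand, CCCTGAG, cannot pair with the seed and occur in 0.555% of probes. Among the 128 genes with them 3 fell (2.34%) and 4 rose (3.12%), with a median of 0.04. A match is a description of letters in a probe, not evidence of a working site, and most of each message lies outside its probe.

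Stretches around the match are shown for 5 of the 12 genes that fell, chosen after their values were seen, to show the letters beside the match in each probe. Where each match lies within its message was not determined. The stretches are in the sense of the message, from the deposited probe sequences, with the match in capitals.

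Dynlt3: aggttatctaatatCTCAGGGc

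Ptpn18: caaaataaaagtttCTCAGGGc

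Slc46a3: gggcttgctggcctCTCAGGGa

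Mcl1: tgtcttacacgtctCTCAGGGa

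Pop5: atgtaactgcttagCTCAGGGg

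Dynlt3, a dynein light chain whose probe lies at chrX:9231935-9231994 (mm9), fell by 1.36 (SE 0.231, adjusted p = 0.0318). The phosphatase gene Ptpn18 at chr1:34530561-34530620 fell by 1.34 (SE 0.0851, adjusted p = 0.00588). Slc46a3, a lysosomal transporter gene at chr5:148690145-148690204, fell by 1.24 (SE 0.205, adjusted p = 0.0305), and its match is followed by an A, the letter favoured opposite base 1 of a microRNA. The same is true of Mcl1 at chr3:95466855-95466914, which is described with the survival genes below. Of the 12 genes that fell, Odf2 also has this A and the rest do not. Pop5, a subunit of the RNase P and MRP enzymes at chr5:115690916-115690975, fell by 0.90 (SE 0.119, adjusted p = 0.0191).

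**Figure D2:**
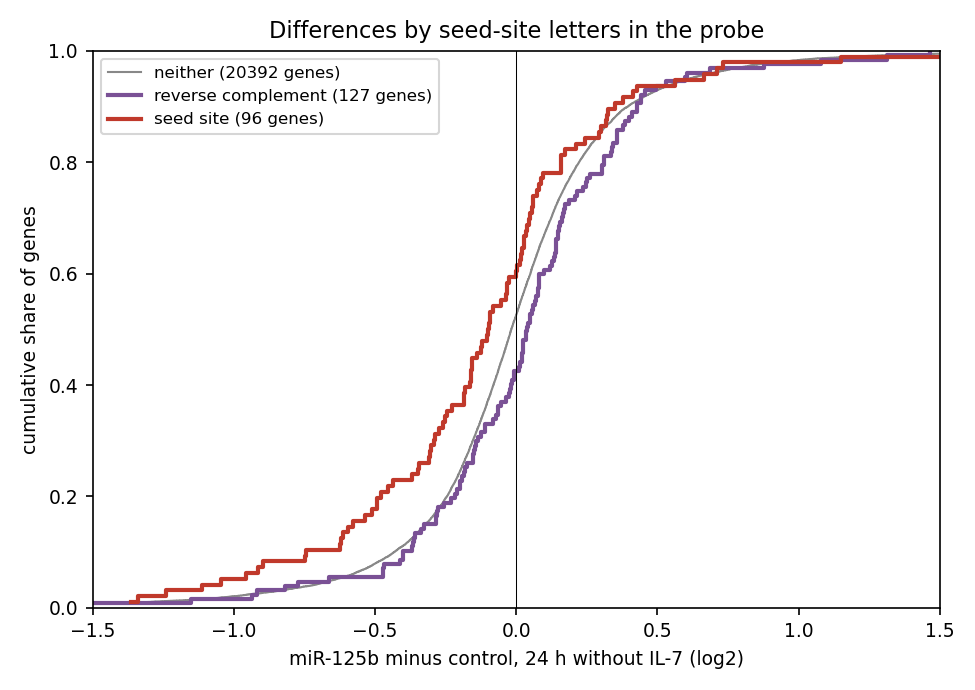
Cumulative share of genes (vertical axis) by log2 difference between miR-125b and control cells without IL-7 (horizontal axis) for the 96 genes whose probe holds CTCAGGG (red), the 127 whose probe holds only the reverse complement CCCTGAG (purple) and the 20392 with neither (grey). Between -1 and 0 the red line lies above the others, so more of these genes were lower, and the horizontal axis leaves out the most extreme differences.

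Genes of the JNK and p38 pathways, which carry stress and death signals, were lower in part. Of 23 members measured 4 fell and 0 rose, where 3.59% of all genes fell, with a median of -0.18. Scaling to the array median gave a list median of 0.02 (0.18 for all genes), with 2 members lower. Map3k11, the mixed-lineage kinase MLK3 that activates JNK, read 1.74 and 1.72 in control cells and 0.90 and 0.91 in miR-125b cells (-0.82, SE 0.0723, adjusted p = 0.00935, probe at chr19:5702495-5702554, mm9). Jun, the AP-1 factor that JNK phosphorylates, fell from 2.94 and 3.01 to 1.89 and 1.91 (-1.08, SE 0.07, adjusted p = 0.00588). Gadd45b, a stress-induced activator of MAP3K, fell from 1.53 and 1.57 to 0.70 and 0.37 (-1.01, adjusted p = 0.0233), and Mapk14, the kinase p38-alpha, by 0.44 (adjusted p = 0.0326). Mapk11, the kinase p38-beta, is outside the list and was called higher by 0.54. It is named after its value was seen. The other mixed-lineage kinases did not pass: Map3k12 differed by -0.64 (adjusted p = 0.153) and Map3k10 by -0.51 (adjusted p = 0.359).

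Genes that MAP kinase signals induce moved in both directions. Nr4a1, an orphan nuclear receptor induced by antigen receptor signals, read 0.32 and 0.81 in control cells against 3.09 and 2.84, a rise of 2.40 (SE 0.22, adjusted p = 0.00995). Its relative Nr4a2 rose from -1.29 and -1.37 to -0.31 and -0.37 (0.99, adjusted p = 0.0139). Among the 11 immediate-early genes measured these 2 rose and Jun fell, while Ier5 (-0.53, adjusted p = 0.0734) and Junb (-0.42, adjusted p = 0.0525) did not pass. Of 12 dual-specificity phosphatases, which switch MAP kinases off, Dusp5 rose by 1.36 (adjusted p = 0.0474, above background on 1 control array only). Dusp1 fell by 0.66 (adjusted p = 0.0184) and Dusp6 by 0.47 (adjusted p = 0.0299).

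Genes of mitochondrial apoptosis changed on both the death and the survival side. Bak1, a pore-forming effector, read 4.62 and 4.69 in control cells and 4.00 and 4.08 in miR-125b cells (-0.61, SE 0.0823, adjusted p = 0.0194, probe at chr17:27156807-27156866, mm9). Mcl1, the survival protein on which B-cell precursors depend, fell in step from 5.85 and 5.82 to 5.20 and 5.22 (-0.62, SE 0.0654, adjusted p = 0.0125), and its second probe gave -0.34. These were 2 of the 7 effectors and pro-survival members measured, whose median was -0.22, while Bcl2l2 (-0.47, adjusted p = 0.0674) and Bcl2 (-0.22, adjusted p = 0.416) did not pass. With arrays scaled to their median 0 of the 7 passed. Among 7 BH3-only genes, which trigger the effectors, 2 rose. Bid went from 0.10 and 0.20 to 1.29 and 1.47 (1.23, adjusted p = 0.0291), and Pmaip1, which encodes NOXA, by 0.61 (adjusted p = 0.0418). Bcl2l11, which encodes BIM, differed by -0.27 (adjusted p = 0.450). Of 18 caspases and inhibitors 1 fell, Casp6 by 0.54 (adjusted p = 0.0191), where 3.59% of all genes fell. The median was -0.15, and 0.05 with arrays scaled to their median (0.18 for all genes).

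Among 20 p53 targets 3 fell and 1 rose, with a median of -0.29, and 1 fell and 1 rose with arrays scaled to their median. Besides Trp53inp1, the antiproliferative Btg2 fell from 4.33 on both control arrays to 3.48 and 3.41 (-0.88, adjusted p = 0.0160) and cyclin G2 (Ccng2) by 0.72 (adjusted p = 0.0467). Sesn1, a nutrient sensor, rose by 0.48 (adjusted p = 0.0414). The death receptor gene Fas just missed the threshold (-0.85, adjusted p = 0.0502), as did Rrm2b (-0.86, adjusted p = 0.0582). Of 21 FOXO factors and targets 3 rose and 3 fell, with a median of -0.02. With arrays scaled to their median 3 rose and 0 fell, and the list's median was 0.17 (0.18 for all genes). Trib1 rose by 0.79 (adjusted p = 0.0285) and Sesn3 fell by 0.55 (adjusted p = 0.0228).

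**Figure D3:**
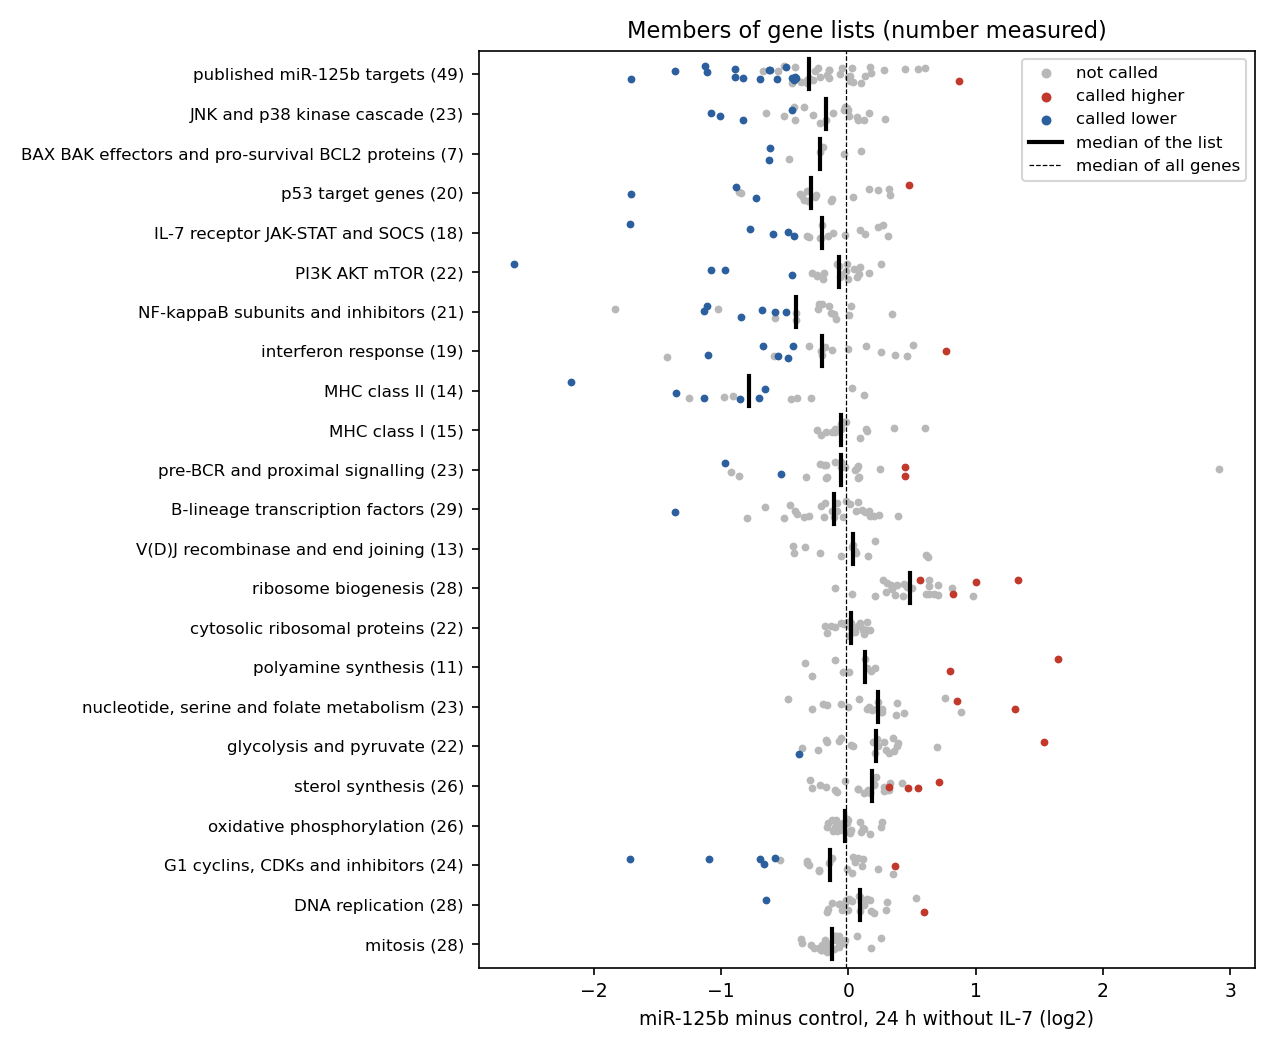
Log2 difference between miR-125b and control cells without IL-7 (horizontal axis) for every measured member of 23 gene lists (rows, number of members in parentheses). Red and blue points are genes called higher and lower, grey points are not called, the thick bar is the list's median and the dashed line the median of all genes (-0.02); the median of MHC class II lies lowest (-0.78) and that of ribosome biogenesis highest (0.48).

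The receptor for the withdrawn cytokine was itself lower. Il7r read 5.62 and 5.60 in control cells and 5.07 and 4.98 in miR-125b cells (-0.59, SE 0.10, adjusted p = 0.0299), and Il2rg, the common gamma chain with which it pairs, fell by 0.42 (adjusted p = 0.0308). Of the 18 genes of the receptor, JAK, STAT and SOCS list 5 fell and 0 rose, with a median of -0.21. The others were the feedback inhibitor Socs3 (-0.77, adjusted p = 0.0196), the survival kinase Pim2 (-0.47, adjusted p = 0.0300) and cyclin D2 (Ccnd2). Ccnd2 read -3.25 and -3.07 in control cells and -4.34 and -5.41 in miR-125b cells, where 1 array was above background (-1.71, adjusted p = 0.0416). Stat3 (-0.32, adjusted p = 0.124) did not pass. With arrays scaled to their median 0 of the 18 passed.

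In the PI3K, AKT and mTOR list 4 of 22 genes fell and 0 rose, with a median of -0.07. With arrays scaled to their median the list's median was 0.12 (0.18 for all genes). Ddit4 (REDD1), a stress-induced brake on mTOR, fell from 6.56 and 6.58 to 5.59 and 5.40 (-1.08, adjusted p = 0.0152). Sgk1, a kinase related to AKT, fell from 0.34 and 0.40 to -0.55 and -0.65 (-0.97, adjusted p = 0.00930). Plcb1 was above background in control cells only and was at least 2.26-fold lower in miR-125b cells. Outside the list, Pik3r3, a regulatory subunit of PI3K, read -0.06 and 0.02 in control cells against -1.95 and -1.89 (-1.90, SE 0.11, adjusted p = 0.00524).

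NF-kappaB is a family of dimers held in the cytoplasm by inhibitors that the dimers themselves induce. Of 21 NF-kappaB genes measured 6 fell in starved miR-125b cells, 0 rose and 15 did not pass, and 18 lay below 0, with a median of -0.41. With arrays scaled to their median 3 fell and 0 rose. Relb, the subunit of the alternative pathway, read 2.52 and 2.67 in control cells and 1.46 and 1.47 in miR-125b cells (-1.13, SE 0.10, adjusted p = 0.00986), although its 3 probes ranged from -1.13 to -0.04. Its partner Nfkb2 fell from 2.53 and 2.64 to 1.80 and 1.69 (-0.84, adjusted p = 0.0118). The inhibitors fell as well: Nfkbid by 0.68 (adjusted p = 0.0240), Nfkbia by 0.57 (adjusted p = 0.0370), Nfkbie by 0.49 (adjusted p = 0.0479) and, as above, Tnfaip3. The subunits of the classical pathway differed little, Nfkb1 by 0.003 (adjusted p = 0.985) and Rela by -0.23 (adjusted p = 0.208), both named after their values were seen. Cd40 differed by -1.83 and the cytokine gene Ltb by -1.02, but their replicates were far apart and neither passed (adjusted p = 0.228 and 0.0685).

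The promoters of some of these genes carry the letters that NF-kappaB dimers favour. The motif sought was GGG, any 2 letters, then TTTCC. Sought on both strands in the 300 bases around each start, it was found in 2.0% of the 10938 tested genes with a promoter in RefSeq (GRCm38.p6). It was found in 6 of the 16 genes of the list with a promoter (Ltb, Nfkb2, Nfkbia, Tnfaip3, Traf2 and Traf3) and in 3 of the 5 that were called. The stretch around the letters, in capitals and all before the start, is shown for those 3 because they fell together. The Nfkb2 stretch lies at chr19:46305685-46305734 on the plus strand, that of Nfkbia at chr12:55492648-55492696 and that of Tnfaip3 at chr10:19015411-19015442, both on the minus strand with the letters on the opposite strand.

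Nfkb2: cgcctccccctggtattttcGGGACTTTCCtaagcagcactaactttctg

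Nfkbia: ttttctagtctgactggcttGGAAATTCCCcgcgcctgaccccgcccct

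Tnfaip3: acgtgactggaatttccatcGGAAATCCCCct

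The letters describe the promoter and do not show that a factor was bound. Over all called genes the motif stood in the promoters of 3.91% of the 512 lower and 1.24% of the 402 higher genes with a promoter.

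Some members of the Toll-like receptor and interferon pathways passed too, where 6.46% of all genes did. Of 19 Toll-like receptor genes 3 fell and 1 rose: besides Traf6, Irf7 fell from -2.47 and -2.79 to -3.76 and -3.70 (2.15-fold, adjusted p = 0.0419) and the trafficking protein gene Unc93b1 by 0.66 (adjusted p = 0.0408), while Tlr4, the receptor for lipopolysaccharide, rose from -0.59 and -0.31 to 0.42 and 0.80 (1.06, adjusted p = 0.0316). Of 19 interferon-response genes 5 fell and 1 rose, with a median of -0.21. Irf1 fell from 4.72 and 4.73 to 4.07 and 4.04 (-0.67, SE 0.07, adjusted p = 0.0114), and Parp14, Isg15 and Trim25 fell by 0.55, 0.47 and 0.43 (adjusted p = 0.0170, 0.0401 and 0.0375). The surface protein gene Bst2 rose by 0.77 (adjusted p = 0.0349). Zbp1, a sensor of Z-form nucleic acids, fell by 1.77 on 1 probe and 2.20 on the other (adjusted p = 0.0125 for the brighter). With arrays scaled to their median 0 genes of either list fell and 1 of each rose.

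MHC class II displays peptides to helper T cells. Of 14 genes of this pathway measured 6 fell, 0 rose and 8 did not pass, 12 lay below 0, and the median was -0.78. With arrays scaled to their median 3 fell and 0 rose. Cd74, the invariant chain that escorts class II molecules, read 2.23 and 2.78 in control cells and 0.55 and 0.11 in miR-125b cells, a difference of -2.17 (SE 0.34, adjusted p = 0.0271). The groups did not overlap, as in every called gene, but the replicates of each group were further apart than in most genes named here. The peptide-loading genes H2-DMb1 and H2-DMa fell by 1.35 (adjusted p = 0.0277) and 0.85 (adjusted p = 0.0351), and H2-Oa, part of the molecule that tempers them, by 1.13 (adjusted p = 0.0125). H2-Ab1, the beta chain of the I-A molecule, read 5.77 and 5.95 against 5.20 and 5.12 (-0.70, adjusted p = 0.0318).

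Chains that missed the threshold had differences of similar size, H2-Aa of -1.25 (adjusted p = 0.0548) and H2-Ea of -0.97 (adjusted p = 0.124). Rfxank, a subunit of the factor that binds class II promoters, fell by 0.65 (adjusted p = 0.0125). Ciita, the coactivator of the pathway, differed by -0.45 (adjusted p = 0.680) and is named after its value was seen. H2-Eb2, outside the list, fell from -0.60 and -0.59 to -2.29 and -2.42 (-1.76, adjusted p = 0.0170). In MHC class I 0 of 15 genes passed in limma (3 at an unadjusted p under 0.05). The median was -0.06, and 0.14 with arrays scaled to their median (0.18 for all genes). The largest differences were those of Calr at 0.60 (adjusted p = 0.0568) and Nlrc5 at 0.36 (adjusted p = 0.0502). With any 1 of the 4 arrays left out 0 of the 14 class II genes passed, and the median stayed between -0.60 and -0.88 relative to all genes over the 20 other settings.

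Surface molecules that appear as B cells mature were mostly without a call, 2 of 25 lower and 0 higher, where 3.59% of all genes fell. Ly6d, a surface marker of committed B-cell precursors, read 2.65 and 3.06 in control cells and 0.17 and 0.12 in miR-125b cells (-2.71, SE 0.203, adjusted p = 0.00780). Cd69, an activation antigen that retains lymphocytes in tissues, fell from 0.90 and 0.91 to -0.24 and -0.20 (-1.12, adjusted p = 0.0139). Ms4a1, which encodes CD20, differed by -2.24 without passing (adjusted p = 0.0992), since control replicate 1 read -2.42 and control replicate 2 -0.29. Among 17 homing receptors P2ry10 fell by 1.32 (adjusted p = 0.0353) and Itga6 by 0.62 (adjusted p = 0.0347), and S1pr1 rose as given above. The second probe of Itga6 gave 0.27.

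Lists of the pre-B stage itself differed in how many members passed, where 6.46% of all genes did. Of 13 genes of V(D)J recombination and end joining 0 passed in limma (4 at an unadjusted p under 0.05, 1 higher with arrays scaled to their median), with a median of 0.04, and the largest differences were those of Rag2 (0.62, adjusted p = 0.209) and Dntt, which adds untemplated bases (0.61, adjusted p = 0.0624). Among 23 genes of the pre-B-cell receptor and its signalling 2 rose and 2 fell. The Src kinase Lyn fell from 1.19 and 1.25 to 0.29 and 0.21 (-0.97, adjusted p = 0.0140) and the exchange factor Vav1 by 0.53 (adjusted p = 0.0152), while the kinase Fyn rose by 0.45 (adjusted p = 0.0355) and Plcg1 by 0.44 (adjusted p = 0.0401, its 3 probes from -0.49 to 0.52). Of 29 B-lineage transcription factors Arid3a was the 1 that passed. The median was -0.11, and 0.08 with arrays scaled to their median (0.18 for all genes). Id1 differed by -0.79 (adjusted p = 0.0627).

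Other regulators of lymphocyte state that passed included Kruppel-like factors and Notch targets. Klf10 fell from 2.18 and 2.14 to 1.13 and 1.29 (-0.95, adjusted p = 0.00988), Klf13 by 0.49 (adjusted p = 0.0229) and Klf11 by 0.47 (adjusted p = 0.0338), 3 of the 11 members measured, of which 1 fell with arrays scaled to their median. Klf3 was above background on the miR-125b arrays only, and Klf2 differed by 0.70 (adjusted p = 0.173). Dtx1, a Notch target of lymphocytes, fell from -1.30 and -1.59 to -2.66 and -3.10 (-1.43, adjusted p = 0.0184), and Hes1, the classical Notch target, by 1.00 (adjusted p = 0.0347), 2 of 12 genes with 0 higher. Maf, a transcription factor gene, fell from -1.13 and -1.16 to -3.06 and -3.13 (-1.95, adjusted p = 0.0125).

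MYC is a transcription factor that drives ribosome production and metabolism, and the MXD proteins oppose it at shared sites. Myc read 1.19 and 1.33 in control cells and 2.58 and 2.85 in miR-125b cells, a rise of 1.46 (SE 0.25, adjusted p = 0.0330, probe at chr15:61821417-61821476, mm9). The antagonists Mxd4 and Mxd3 fell by 0.90 (adjusted p = 0.0470) and 0.47 (adjusted p = 0.0461), but 0 genes of the 12 in this network fell with arrays scaled to their median. In ribosome biogenesis 4 of 28 genes rose and 0 fell, 27 lay above 0, and the median was 0.48 against -0.02 for all genes. Polr1b, the second largest subunit of RNA polymerase I, read -0.38 and 0.04 in control cells against 1.04 and 1.28 (1.33, SE 0.25, adjusted p = 0.0401). Rcl1, an enzyme of rRNA processing, rose from 0.44 and 0.49 to 1.43 and 1.51 (1.00, adjusted p = 0.0139), Polr1a, the largest subunit of the polymerase, by 0.82 (adjusted p = 0.0246) and Ppan by 0.56 (adjusted p = 0.0360). Gnl3 (0.98, adjusted p = 0.0568) and Tsr1 (0.82, adjusted p = 0.0549) came close to the threshold. The count depended on the setting, from 1 to 15 of the 28 over the other settings that kept all 4 arrays, the replicate block within each IL-7 condition apart, and 0 without any 1 of the 4, whereas the median stayed between 0.41 and 0.62 relative to all genes.

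For the proteins of the ribosome itself there was no call. Of 22 cytosolic ribosomal protein genes 0 passed in limma (0 at an unadjusted p under 0.05) and their median was 0.02, with Rps14 at -0.19 (adjusted p = 0.270, 0.008 with arrays scaled to their median) and Rps2 at 0.17 (adjusted p = 0.343) the most distant. Of 22 mitochondrial ribosomal protein genes 0 passed as well (4 at an unadjusted p under 0.05), with a median of 0.11. The letters CACGTG, which MYC and its partners favour, stood in the promoters of 6 of 24 ribosome biogenesis genes with a promoter (Nop2, Pes1, Rrn3, Tsr1, Utp20 and Wdr43), none of them called, and in 11.1% of all tested genes with one. They stood in 14.9% of genes called higher and 12.3% of genes called lower.

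A few members of supply pathways of dividing cells rose, where 2.86% of all genes rose and 6.46% were called in either direction. Srm, which makes the polyamine spermidine, read 1.07 and 1.35 in control cells and 2.69 and 3.03 in miR-125b cells (1.65, SE 0.289, adjusted p = 0.0342, second probe 1.70), and Mtap, which recycles its by-product, rose by 0.80 (adjusted p = 0.0325), 2 of 11 polyamine genes. Shmt1, an enzyme of serine and folate metabolism, rose from -0.44 and -0.33 to 0.81 and 1.03 (1.31, adjusted p = 0.0178) and Mthfd1 by 0.85 (adjusted p = 0.0354), 2 of 23 genes of nucleotide, serine and folate metabolism, whose median was 0.23. The purine enzymes Gart (0.89, adjusted p = 0.0580) and Atic (0.76, adjusted p = 0.0692) did not pass. Hk2, the hexokinase that traps glucose, read -1.63 and -1.31 against -0.06 and 0.20 (1.54, adjusted p = 0.0276), while the regulator Pfkfb3 fell by 0.39 (adjusted p = 0.0338), and the 22 glycolysis genes had a median of 0.22. Of 26 respiratory chain genes 0 passed in limma (1 at an unadjusted p under 0.05), with a median of -0.03. With arrays scaled to their median the list's median was 0.17 (0.18 for all genes).

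Members of uptake and lipid synthesis passed in both directions. Slc39a10, a zinc importer, rose by 0.92 (adjusted p = 0.0188), the amino acid exchanger Slc7a5 by 0.60 (adjusted p = 0.0293) and the transferrin receptor Tfrc by 0.57 (adjusted p = 0.0389), while the iron transporter Slc11a2 fell by 0.51 (adjusted p = 0.0266), 4 of 20 transporters. Iars, a tRNA synthetase, rose by 0.51 (adjusted p = 0.0381). Of 26 sterol synthesis genes 4 rose and 0 fell, with a median of 0.19. Msmo1, a sterol oxidase, went from 4.57 and 4.45 to 5.25 and 5.19 (0.71, SE 0.08, adjusted p = 0.0139), and Fdps, Nsdhl and Fdft1 rose by 0.55, 0.47 and 0.32 (adjusted p = 0.0246, 0.0464 and 0.0454). The probes of Nsdhl and Fdft1 disagreed in sign, the second one reading -0.13 for Nsdhl and -0.59 for Fdft1. In fatty acid synthesis Acsl4 rose by 0.48 (adjusted p = 0.0350) and Elovl1 fell by 0.50 (adjusted p = 0.0241).

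Of 24 regulators of entry into the cell cycle 5 fell and 1 rose, and 1 fell and 0 rose with arrays scaled to their median. Cyclin E1 (Ccne1), which drives entry into S phase, read 4.56 and 4.66 in control cells and 3.44 and 3.60 in miR-125b cells (-1.09, SE 0.10, adjusted p = 0.00935). The repressor genes E2f7 and E2f8 fell by 0.70 (adjusted p = 0.0119) and 0.57 (adjusted p = 0.0184), and the activator gene E2f2 fell from 7.71 and 7.70 to 7.02 and 7.05 (-0.67, adjusted p = 0.0139). The activator E2f1 rose by 0.37 (adjusted p = 0.0468). The list's median was -0.14, and 0.05 under that scaling (0.18 for all genes). In DNA replication the flap endonuclease Fen1 fell by 0.65 (adjusted p = 0.0152) and Gins2 rose by 0.59 (adjusted p = 0.0379). These were 2 of 28, where 6.46% of all genes were called. Of 28 mitosis genes 0 passed in limma (7 at an unadjusted p under 0.05) although 25 lay below 0, with a median of -0.13. Under the same scaling the median was 0.07 (0.18 for all genes).

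Among called genes above background on all 4 arrays, the 15 largest increases and the 15 largest decreases were chosen for naming. St3gal6, a sialyltransferase that caps surface glycans, read 1.16 and 1.26 in control cells and 4.00 and 3.92 in miR-125b cells, a rise of 2.75 (SE 0.0971, 6.74-fold, adjusted p = 0.00380). It was the 1 of 15 sialyltransferases that passed. Ift43, a part of the intraflagellar transport complex, rose by more, from -3.53 and -2.82 to 0.91 and 0.65 (3.95, SE 0.361, adjusted p = 0.00986). Slpi, a secreted inhibitor of leukocyte proteases, went from -1.70 and -1.36 to 1.37 and 0.80 (2.61, adjusted p = 0.00930). Il33, a cytokine of the IL-1 family, went from -0.14 and 0.15 to 1.81 and 1.95 (1.87, adjusted p = 0.00588), and Cd36, a scavenger receptor for lipids, from -0.21 and 0.32 to 1.89 and 1.96 (1.87, adjusted p = 0.0110). In each of these 5 genes both miR-125b arrays lay above both control arrays by more than the replicates differed. The lack of overlap follows from choosing called genes, of which 0 had overlapping groups.

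Among these genes measured on all 4 arrays, the other 10 of the 15 largest increases were between 1.87 (Nrxn2) and 2.68 (Smim22). Among them Pltp, a phospholipid transfer protein gene, rose by 2.24 (adjusted p = 0.00674) and Vat1 by 2.06 (adjusted p = 0.00434). Ahnak, which encodes a giant scaffold protein, rose by 2.34 on its brightest probe (adjusted p = 0.00390), but its 4 probes ranged from 0.34 to 2.34. Of Nrxn2, whose miR-125b replicates read -0.51 and -1.37, the 2 probes gave 1.87 and 4.41.

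**Figure D4:**
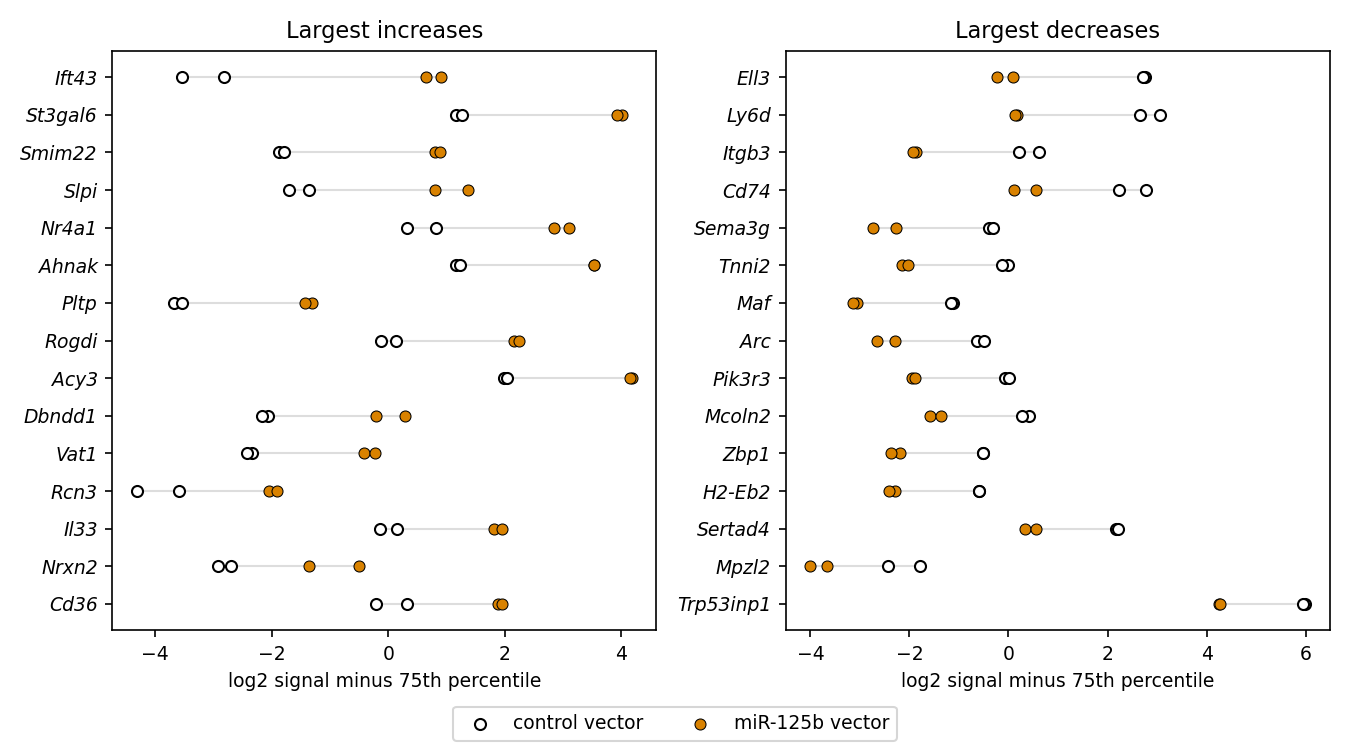
Levels on the 4 arrays without IL-7 (horizontal axes, log2 signal minus the array's 75th percentile) of the 15 genes with the largest increases (left) and the 15 with the largest decreases (right) among called genes above background on all 4 arrays. Open points are the 2 control arrays, orange points the 2 miR-125b arrays, and in each gene the groups are apart by more than replicates of a group. The groups do not overlap in any called gene, so their lack of overlap here follows from the choice of genes.

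Among the largest decreases in genes measured on all 4 arrays Ell3, a factor of RNA polymerase II elongation found in B cells, read 2.75 and 2.71 in control cells and -0.23 and 0.09 in miR-125b cells (-2.80, SE 0.12, 6.97-fold, adjusted p = 0.00390). Itgb3, the integrin beta 3 chain, fell by 2.31 (adjusted p = 0.0125), although its second probe gave -0.53. Sema3g, a secreted semaphorin, fell by 2.14 (adjusted p = 0.0205), Tnni2, a troponin gene, fell by 2.01 (adjusted p = 0.00588), and Arc, an immediate-early gene of neurons, fell by 1.91 (adjusted p = 0.0276). Sertad4 fell from 2.17 and 2.22 to 0.34 and 0.55 (-1.75, adjusted p = 0.00588) and the lysosomal channel gene Mcoln2 from 0.41 and 0.28 to -1.58 and -1.36 (-1.82, adjusted p = 0.0382). Mpzl2, an adhesion molecule, read -1.79 and -2.42 in control cells and -4.00 and -3.67 in miR-125b cells (-1.73, SE 0.30, adjusted p = 0.0331).

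Some probes were measured on both arrays of 1 group but were not well above background on either array of the other, and for these the change has only a lower bound. It sets the bright group's mean against a floor, which on each dim array is the dimmest signal that counted as measured or the probe's own signal if that was higher. This concerned 49 genes called higher and 42 called lower, and a further 10 called genes were dim on all 4 arrays. On that basis Klf3 was at least 5.93-fold higher in miR-125b cells, at -1.37 and -2.49 against -5.50 and -4.94 in control cells (adjusted p = 0.0451). Septin12 was at least 5.53-fold higher, Rcan2, a calcineurin inhibitor, at least 3.48-fold, and Sgsm1, Syngr1 and Fndc4 at least 2.71-fold, 2.41-fold and 2.26-fold. Ivl was at least 4.05-fold lower, Ms4a4a, a relative of the CD20 gene, at least 3.63-fold, and Spata4, Tmem139, Cdc20b and Kcnip2 at least 3.36-fold, 3.34-fold, 3.29-fold and 3.14-fold. The Wnt receptor Fzd9 was at least 1.92-fold higher, and its relative Fzd7, measured on all arrays, rose by 0.86 (adjusted p = 0.0139).

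Of 15 genes of the TGF-beta family and SMADs 2 rose, 1 fell and 12 did not pass. Tgfb3, a TGF-beta ligand, went from -3.93 and -3.57, above background on 1 of 2 control arrays, to 0.46 and 0.15 (4.05, SE 0.397, adjusted p = 0.0112), the signal carrier Smad3 rose by 0.79 (adjusted p = 0.0221) and Bmp4 fell by 0.84 (adjusted p = 0.0194). Of 15 progenitor and cytokine receptors 1 rose, 2 fell and 12 did not pass. Il6st, the shared receptor chain of the IL-6 family, rose by 1.15 (adjusted p = 0.0252). Flt3, a cytokine receptor of early progenitors, fell from -2.21 and -2.15 to -3.31 and -3.21 (-1.08, adjusted p = 0.00780, second probe 0.13), and Cd34 by 0.71 (adjusted p = 0.0428).

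The effect of miR-125b could be set beside that in cells kept in IL-7, which were measured on 4 other arrays of another slide. The difference between the effects, tested as an interaction in the same limma fit, passed in 0 of 20615 genes (0.0%), with 1218 genes at an unadjusted p under 0.05 and a smallest adjusted p of 0.123. Of the 590 genes that rose without IL-7, 556 were also above control with IL-7 and 170 (28.8%) were called there, and of the 741 that fell 714 were below control and 182 (24.6%) were called. Over all 20615 genes 492 were called with IL-7, in either direction. How many of all genes kept their sign between the conditions was not counted. Trp53inp1 was lower by 1.57 with IL-7 against 1.71 without, and Map3k11 by 0.78 against 0.82, and the change in effect was not called for either.

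List medians in the 2 conditions are given side by side, since no gene passed the test of a difference in effect. The median of the MHC class II list was 0.16 with IL-7 and -0.78 without. The miR-125b effect on Cd74 was -0.34 with IL-7, and the change in effect was -1.84 (SE 0.476, adjusted p = 0.607). For H2-DMb1 the effects were 0.33 and -1.35, and the change was -1.69 (SE 0.300, adjusted p = 0.468). NF-kappaB genes had a median of -0.11 with IL-7 and -0.41 without, and Nfkbid went from 0.06 to -0.68 (change -0.74, SE 0.141, adjusted p = 0.468). Ribosome biogenesis had medians of 0.42 and 0.48. Cd36 had an effect of 0.18 with IL-7 and 1.87 without, and for Tmem139, dim on both starved miR-125b arrays, the effect with IL-7 was 0.02 (adjusted p of the change = 0.123).

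**Figure D5:**
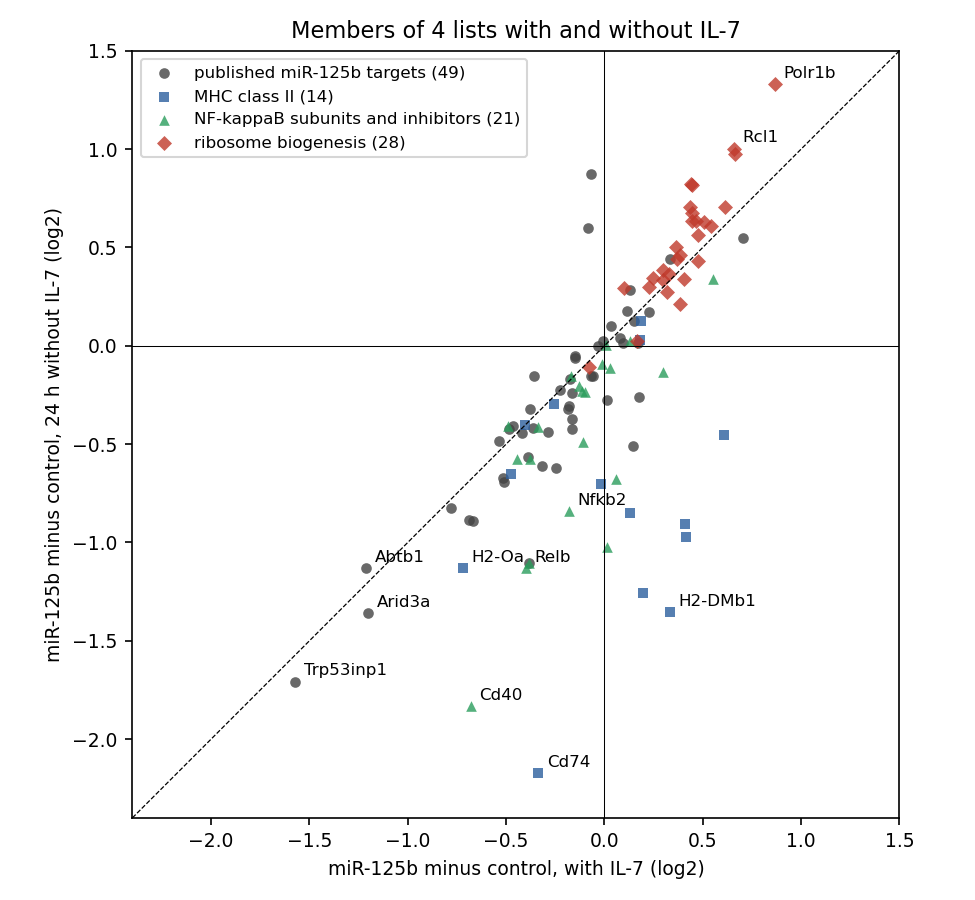
Log2 difference between miR-125b and control cells with IL-7 (horizontal axis) and 24 h without IL-7 (vertical axis) for the members of 4 gene lists; the dashed line marks equal effects. Most ribosome biogenesis genes lie a little above the line, while most MHC class II genes lie below it, with medians of 0.16 and -0.78; 0 genes passed the test of the difference between the effects.

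Markers of other cell types were read beside these results. Of 16 T and NK cell markers 9 were measured and 2 fell, the kinase gene Zap70 by 0.91 (adjusted p = 0.0125), which pre-B cells can express, and Klrb1c by 0.60 (adjusted p = 0.0297), while Lck differed by -1.13 (adjusted p = 0.0780). Their summed linear signal was 52.7 and 57.1 times the 75th percentile in control cells and 33.0 and 35.1 in miR-125b cells. Cd3e, Cd4, Cd8a, Klrb1c, Lck, Nkg7, Prf1 and Zap70 were above background on all 4 arrays. Cd3d, Cd3g, Cd8b1, Thy1, Trbc1, Ncr1 and Gzmb were not measured. Either no probe had that name or none was above background in any whole group. None of the 7 myeloid, 5 erythroid and megakaryocytic, 6 plasma cell and 2 stromal markers measured passed (0 of 20 in limma, 5 at an unadjusted p under 0.05), but 2 erythroid and megakaryocytic markers were higher with arrays scaled to their median. Myeloid markers summed to between 14.6 and 17.6 on the 4 arrays and plasma cell markers to between 198 and 216, with the groups overlapping. The 2 stromal markers summed to 48.4 and 48.5 in control cells and 56.5 and 56.4 in miR-125b cells, nearly all of it Vim. The 5 erythroid and megakaryocytic markers summed to 0.567 and 0.454 against 0.747 and 0.65. In both lists the miR-125b arrays were higher without overlap, but groups did not overlap in 61.1% of all genes either. The part of such markers in the results above was not tested.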

How the data were processed

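Gene expression was measured on 8 one-colour Agilent arrays, of which the 4 without IL-7 are described. The deposited intensity values are spot signals that Agilent Feature Extraction had background-subtracted and detrended within each array, per the file headers (version 10.7.1.1 for the arrays described, 10.7.3.1 for the others). Other deposited columns are quality marks of each spot, per the file headers. The authors' deposited value table, also intensity, was used as an alternative and correlated with the spot signals at 0.9993 or more.

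Each array's log2 signal was reduced by its log2 75th percentile. Control spots (3671 of 62976) and 58 probes with non-uniform spots were left out. Probes that rose well above background in a whole group, whichever it was, were kept (29811), and the brightest probe stood for a gene (20615 genes, 12793 with a symbol). Of 55681 probes, 27267 were named by accession, 5249 by symbol and 789 by synonym through RefSeq, and 22376 kept the file's name. Probe positions are those of the files (mm9), and promoters and microRNAs are from RefSeq (GRCm38.p6).

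Groups were compared with limma 3.58.1 in R 4.3.3 (lmFit and eBayes over 4 group means, 4 residual degrees of freedom), with Benjamini-Hochberg adjustment over all genes and a threshold of 0.05. The fit was tested on simulated data. A first run missed its criterion, after which both the simulation and the criteria were changed, so this is no independent check. Samples sharing a replicate number did not deviate together (r = -0.029 between the groups without IL-7), so no block was used. Genes named are the 15 largest changes of each direction, the 6 largest bounds of each direction, the called members of each list (at most 6) with its 2 most distant uncalled members, and 8 genes of interest. Any other gene given with values (Mir100hg, Igkc and those said to be so) was chosen after its values were seen. A few genes that the rule selects are not reported here. The members and lists were chosen with earlier results of these data known. The number of arrays limits the precision.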

Additional observations from a re-analysis of the deposited data

How the results depend on the processing

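Against 1331 genes called without IL-7, 900 were called with arrays scaled to their median, 2070 with quantile normalization, 2693 with normexp background correction, 620 with no filter on dim probes, 521 with only the 4 arrays without IL-7, 2621 with a mean-variance trend and 2066 from the deposited table. With filters on all 8 arrays or on the groups without IL-7, or the mean over a gene's probes, 1919, 1445 and 1219 were called. With the replicate number as a block over both conditions 460 were called, and with a block within each IL-7 condition 0 by limma (4466 at an unadjusted p under 0.05); the numbers are not stated to pair the samples. Leaving out 1 array at a time gave 3 to 1142. The lone array left in a group is then assumed to vary like the others. The test of the change in effect called 1 gene with median scaling, quantile normalization, the trend and the deposited table, 6 with normexp, and 0 to 3 with 1 array left out. It could not be fitted with only the 4 arrays without IL-7.

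Each of the 147 called genes that the rule selects was uncalled in some setting of the 20, since the block within conditions removed every call, and 32 were uncalled in more than 50% of the settings that measured them. Of these 147, Fdft1 changed sign (-0.138 as the mean of all probes). Uncalled genes that changed sign were Mxi1 (-0.135 with normexp, -0.425 to 1.141 with 1 array left out), Rps14 (0.008) and Lat (0.03) with median scaling, Ski (-0.007 with normexp) and Col1a2 (-0.067 with normexp, -0.035 to 0.287 with 1 array left out). The causes were not tested. Over the other settings that kept all 4 arrays, the within-condition block apart, published targets called lower numbered 5 to 24, MHC class II genes 2 to 9 and NF-kappaB genes 3 to 10. Without any 1 of the 4 arrays they numbered 0 to 2, 0 and 0.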

Other observations

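The kappa light chain constant region gene Igkc read -2.53 and -2.39 in control cells and -3.30 and -5.42 in miR-125b cells, a difference of -1.90 that did not pass (adjusted p = 0.279, limma).

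Some called genes lay beside each other. Of 1064 called genes with a name and position, 148 neighbouring pairs were within 100 kb, 97 of them changed in the same direction, and in 9 both genes changed at least 2-fold in the same direction. The share of pairs in the same direction among distant called genes or all neighbouring genes was not counted. Septin12, Smim22 and Rogdi, consecutive on chromosome 16, were all higher. On chromosome 15 Arc, Lynx1 and Ly6d were all lower, Lynx1 with a difference of -1.45 (adjusted p = 0.00993). These pairs were singled out after their values were seen.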
